A study of Mus musculus with 3 samples.

Results

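Fibulins, the glycoprotein Sparc, fibronectin and collagen chains are proteins that cells secrete to build the extracellular matrix. The 8 genes described here were Fbln1, Fbln2 and Fbln5 (fibulins), Sparc, Fn1 (fibronectin) and the collagen chain genes Col1a1, Col4a1 and Col4a2. They were taken by symbol from the aliases of a table of 27389 gene clusters, and each symbol was found in exactly 1 cluster. The genes were chosen with earlier values from these same libraries known, some of them lower after knockdown, so every difference from the control below is a description and carries no test.

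RNA had been sequenced from CAD cells, a mouse catecholaminergic neuroblastoma line, with poly(A)+ selection 72 h after transfection. The groups were cells given Ptbp1 and Ptbp2 siRNAs together, cells given Ptbp1 siRNA alone, and cells given control siRNA, with ON-TARGETplus siRNAs delivered by lipofection in every case. Ptbp1 encodes a splicing repressor of most non-neuronal cells and Ptbp2 its neuronal paralogue. The series as a whole concerned neuronal mRNA levels and intron retention that changes in development. Each group had 1 library, all from 1 cell line, so no value below has a replicate check and no p-value is given.

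Fibulins are secreted glycoproteins with calcium-binding EGF-like repeats that bind other matrix proteins and take part in elastic fibres and basement membranes. Sparc is a calcium-binding glycoprotein that binds collagen, and fibronectin links matrix to integrins at the cell surface. Type I collagen forms fibrils, usually from the chains of Col1a1 and Col1a2 together, while the chains of Col4a1 and Col4a2 assemble into the type IV collagen network of basement membranes. These genes are best known from fibroblasts, vessels and epithelia, and many neuroectodermal cells also make basement membrane components.

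The read totals over gene clusters were 14242557 after both siRNAs, 16899510 after Ptbp1 siRNA and 16011365 in the control. CPM is the read value scaled to library size and composition, and 1 CPM stood for 14.5 reads after both siRNAs, 17.2 after Ptbp1 siRNA and 15.5 in the control. Ptbp1 had 1516 reads after both siRNAs and 1486 after Ptbp1 siRNA, against 7191 in the control, although 16.3% of its exon bases are shared with other genes. Ptbp2 had 633 reads after both siRNAs and 3044 after Ptbp1 siRNA, against 784 in the control, so the library with both siRNAs held Ptbp2 near its control level. The summed level of catecholaminergic and neuronal markers was 5273 CPM after both siRNAs, 4497 CPM after Ptbp1 siRNA and 5144 CPM in the control. Single markers differed more than this sum. After both siRNAs against the control, 7 of the 14 that reached 1 CPM were below 0. By the size rule given below 2 were called higher, beside 1.05% of all genes, and 0 lower, beside 2.67%. The 12 fibroblast and mesenchymal markers summed to 25.6 CPM after both siRNAs, 28.7 after Ptbp1 siRNA and 26.9 in the control, most of it from the transcription factor gene Twist1, and Col1a2 was listed at 0 in every library. The 6 endothelial markers summed to 12.9 CPM after both siRNAs, 18.3 after Ptbp1 siRNA and 22.8 in the control, mostly Pecam1. The 8 Schwann and oligodendrocyte markers summed to 13.6 CPM after both siRNAs, 18.2 after Ptbp1 siRNA and 18.9 in the control. The 6 astrocyte markers summed to 1.38 CPM with both siRNAs, 1.69 with Ptbp1 siRNA and 2.58 in the control. The 6 blood markers summed to 0.691 CPM with both siRNAs, 0.349 with Ptbp1 siRNA and 0.517 in the control, with Hba-a1, Hbb-b1 and Cd14 at 0 throughout. The sums of the fibroblast, endothelial, Schwann and oligodendrocyte, and astrocyte markers were thus also lowest after both siRNAs. Few of these markers reached 1 CPM in the pair with the control, at 4 of 12, 1 of 6, 2 of 8 and 1 of 6. None of them was called by size (defined below), and 1 of the 4 fibroblast markers was below 0. The part of these markers in the results was not tested. In bulk RNA fewer cells of a kind and less RNA per cell cannot be told apart.

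One of the sequences shown is where the head-to-head genes Col4a1 and Col4a2 begin, because the same stretch of chromosome 8 starts both members of the pair whose levels are compared below. Their annotated 5′ ends overlap by 22 bases, at chr8:11312805-11312826 of the mm9 build, shown on the plus strand.
Col4a1 and Col4a2 shared start: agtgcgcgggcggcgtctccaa

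The 250 bases before the starts of Fbln2 and Sparc are shown because these members had the largest differences from the control. They are RefSeq promoter sequences from a table built on GRCm38.p6. Each matched mm9 exactly, at chr6:91162508-91162757 (plus strand) and chr11:55233583-55233832 (minus strand), and each is written 5′ to 3′ along its gene. Capitals mark matches on either strand to the TATA box (TATAAA), the CCAAT box (CCAAT), the GC box (GGGCGG), the AP-1 motif (TGANTCA) and a pyrimidine repeat (CTCTCT). Matches to the repeat may overlap one another.
Fbln2: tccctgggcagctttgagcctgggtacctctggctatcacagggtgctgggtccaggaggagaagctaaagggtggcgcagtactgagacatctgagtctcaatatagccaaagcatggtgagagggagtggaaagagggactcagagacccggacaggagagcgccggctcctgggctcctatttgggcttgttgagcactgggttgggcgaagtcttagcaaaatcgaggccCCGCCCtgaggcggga
Sparc: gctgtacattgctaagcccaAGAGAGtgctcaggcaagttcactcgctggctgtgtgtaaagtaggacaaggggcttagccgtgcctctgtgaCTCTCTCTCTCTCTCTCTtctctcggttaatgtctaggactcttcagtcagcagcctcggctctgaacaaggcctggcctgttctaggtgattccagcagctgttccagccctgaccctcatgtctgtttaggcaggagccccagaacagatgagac

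The Fbln2 window held 1 match, to GGGCGG, which 32.7% of the 32851 RefSeq promoters of that length also hold. The Sparc window held 8 matches, most of them overlapping, and all to CTCTCT, which 23.4% of promoters hold. None of the 5 patterns searched was found in both of these windows, which were picked for the size of their genes' differences. Of the other members, Fbln1, Fbln5, Col4a1 and Col4a2 had listed promoters. Among their windows, GGGCGG was in Fbln1, Fbln5 and Col4a2, CTCTCT in Fbln1 and Fbln5, and CCAAT in Fbln5, Col4a1 and Col4a2. Whether any match bears on the RNA levels was not tested.

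PTB proteins bind pyrimidine-rich RNA with UCUU and CUCUCU among the known motifs, so the gene spans were searched on the sense strand for the DNA spellings TCTT and CTCTCT. For 13388 genes that reached 1 CPM and spanned at least 1000 bases, the median was 6.90 TCTT per kilobase. Fbln2 had 6.89 and Sparc 6.98 per kilobase, and the 7 members that reached 1 CPM lay between 5.65 (Col1a1) and 7.63 (Fn1), within the 5th to 95th percentile of these genes (3.99 to 9.27). CTCTCT was denser in Sparc, at 2.60 per kilobase, and in Fbln1, at 2.01, than in 96.4% and 93.2% of the genes, with a median of 0.804. Fbln2 had 1.32 per kilobase. These are counts of letters and not of bound sites, and whether they bear on the RNA levels was not tested.

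Per length of transcript, Fbln1 and Sparc were among the most abundant RNAs of the control library, and the other members were moderate to very low. Levels between genes are given as the deposited RPKM, the read value per transcript length and library size. In the control library Fbln1 had 170.9 RPKM, more than 99.4% of clusters, and Sparc 86.6 RPKM, more than 98.3%. Fbln2 followed with 8.73, Fn1 with 6.26, Col4a2 with 4.89 and Col4a1 with 2.82 RPKM. Col1a1 had 1.07 RPKM and Fbln5 0.0682 RPKM. In that library the 95% counting intervals of neighbours in this order did not overlap. Sparc stood above 96.7% of clusters after Ptbp1 siRNA and above 94.0% after both siRNAs. These shares are over 27224 clusters, of which 13577 reached 1 CPM.

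**Figure D1:**
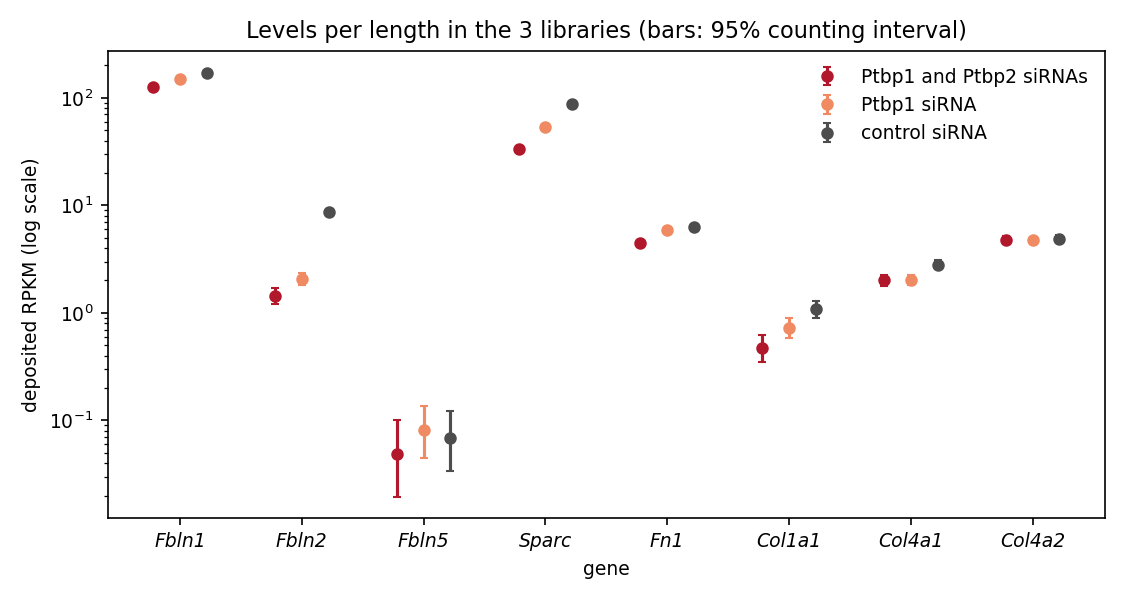
Deposited RPKM on a log axis for the 8 genes, with the libraries of both siRNAs, Ptbp1 siRNA and control siRNA from left to right within each gene and 95% counting intervals as bars (1 library each). Fbln2 is at 1.44 RPKM after both siRNAs, 2.07 RPKM after Ptbp1 siRNA and 8.73 RPKM in the control, while Col4a2 lies between 4.74 and 4.89 RPKM in all 3 libraries.

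The order of the middle genes differed between libraries, most of all in the place of Fbln2. After Ptbp1 siRNA Fbln2 was at 2.07 RPKM beside Col4a1 at 2.04 RPKM, with overlapping intervals. After both siRNAs it was at 1.44 RPKM, below Col4a1 at 2.01 RPKM, and Col4a2 (4.76 RPKM) stood above Fn1 (4.46 RPKM) with overlapping intervals. Fn1 stood above Col4a2 after Ptbp1 siRNA (5.84 and 4.74 RPKM) and in the control. Fbln1 and Sparc stayed first and second, and Col1a1 and Fbln5 last, in each library.

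Of the fibulins, Fbln2 was much lower in both knockdown libraries, Fbln1 was a little lower, and Fbln5 was barely detected. A gene was called by size when its log2(CPM + 1) differed by at least 1, it reached 1 CPM in the higher library and the exact 95% interval of its read ratio excluded 1. Fbln2 (chromosome 6, 91162759 to 91222535 of mm9, plus strand) had 141 reads after both siRNAs and 242 after Ptbp1 siRNA, against 961 in the control, which is 9.75, 14.1 and 62.1 CPM. The control library stood far above both knockdown libraries, which lay close to each other. Against the control Fbln2 fell 6.37-fold after both siRNAs (5.33 to 7.65) and 4.41-fold after Ptbp1 siRNA (3.83 to 5.10). In each of these pairs its log2(CPM + 1) difference was the fourth lowest, of 13465 and of 13399 genes tested. Between the knockdown libraries it was 1.44-fold lower after both siRNAs (1.17 to 1.79). All intervals here cover counting error only.

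Fbln1 (chromosome 15, 85036442 to 85116087, plus strand) is the founding fibulin and a component of many basement membranes and of blood plasma. It had 8517 reads after both siRNAs and 12136 after Ptbp1 siRNA, against 13000 in the control, or 589, 705 and 840 CPM. Relative to the control it was 1.43-fold lower with both siRNAs (1.39 to 1.47) and 1.19-fold lower with Ptbp1 siRNA (1.16 to 1.22), and it was not called. The Ptbp1 siRNA library lay between the others.

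Fbln5 (chromosome 12, 102984776 to 103057266, minus strand), needed for elastic fibre assembly in mice, had 7 reads after both siRNAs and 14 after Ptbp1 siRNA, against 11 in the control. All 3 values were below 1 CPM, so Fbln5 was not tested. The interval of its ratio after both siRNAs against the control ran from 0.224 to 1.92, so a difference of the size seen for Fbln1 was not detectable at this depth.

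Ratios of reads within a library do not depend on how libraries are scaled. There were 1.66 Fbln2 reads per 100 Fbln1 reads after both siRNAs (1.39 to 1.96) and 1.99 after Ptbp1 siRNA (1.75 to 2.26), against 7.39 in the control (6.92 to 7.89). The knockdown libraries overlapped in this ratio and the control lay well above both. In each library the more abundant of these fibulin RNAs was Fbln1, and the gap widened in the knockdown libraries.

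Efemp2, which encodes fibulin-4, is no member of the 8 but belongs to the same protein family, and it too was lower. It had 92 reads after both siRNAs and 160 after Ptbp1 siRNA, against 415 in the control. It was 4.21-fold lower (3.35 to 5.34) and 2.88-fold lower (2.40 to 3.48) than in the control, and was called in both pairs. Efemp1, the gene of fibulin-3, was listed at 0 in every library. Taken as a true count, this allows up to 0.207, 0.174 and 0.194 CPM after both siRNAs, after Ptbp1 siRNA and in the control. The deposited values are net values with no stated correction, so these limits may not hold.

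**Figure D2:**
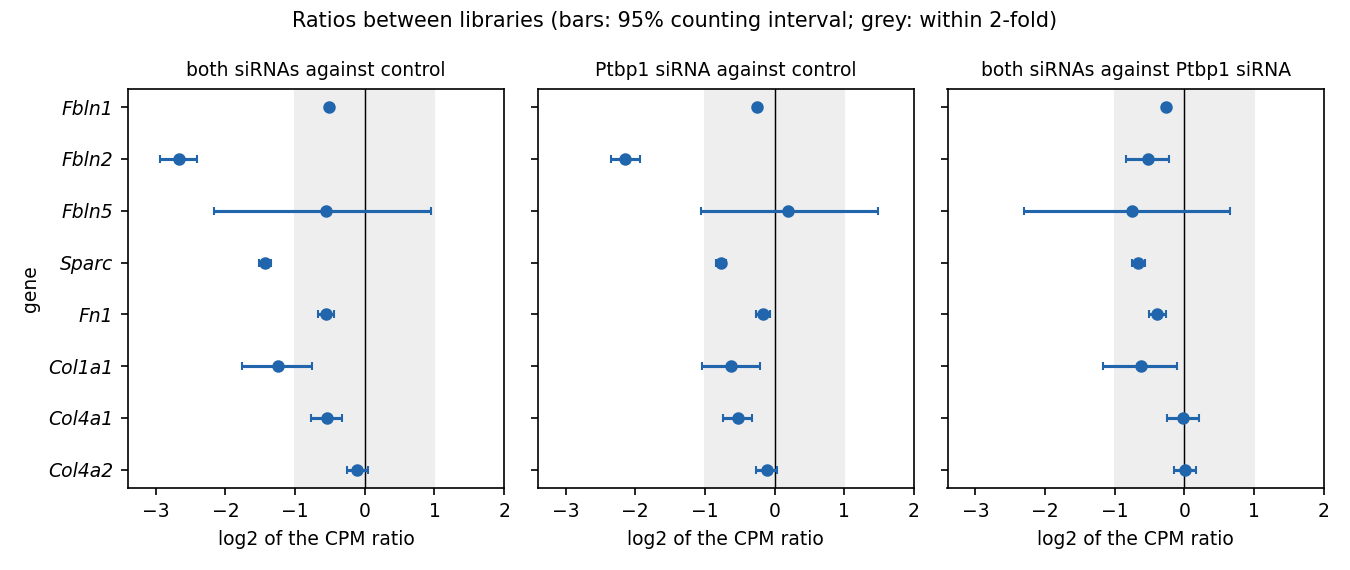
Log2 of the CPM ratio for each gene in the pairs both siRNAs against control, Ptbp1 siRNA against control and both siRNAs against Ptbp1 siRNA, with 95% counting intervals as bars and the range within 2-fold in grey. Fbln2 lies outside the grey range in both pairs with the control, Sparc and Col1a1 in the pair of both siRNAs with the control, and Col4a2 spans 0 in all 3 pairs.

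Sparc was lower after Ptbp1 siRNA and lower again when Ptbp2 siRNA was added. Sparc (chromosome 11, 55208004 to 55233368, minus strand) had 1511 reads after both siRNAs and 2844 after Ptbp1 siRNA, against 4364 in the control. These are 104.5, 165.3 and 281.8 CPM, so the Ptbp1 siRNA library lay between the others. With both siRNAs it fell 2.70-fold relative to the control (2.54 to 2.86). With Ptbp1 siRNA it was 1.70-fold lower (1.63 to 1.79), which did not reach the size for a call. After both siRNAs it was also 1.58-fold lower than after Ptbp1 siRNA (1.49 to 1.69), so the steps were of about the same size. For Fbln2 most of the difference was already present after Ptbp1 siRNA.

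Fibronectin RNA hardly differed after Ptbp1 siRNA and was lower when both genes were targeted. Fn1 (chromosome 1, 71632098 to 71699731, minus strand) had 980 reads after both siRNAs and 1524 after Ptbp1 siRNA, against 1541 in the control. It was 1.47-fold lower after both siRNAs (1.35 to 1.59) and 1.12-fold lower after Ptbp1 siRNA (1.05 to 1.21) than in the control, without a call. Within libraries there were 11.5 Fn1 reads per 100 Fbln1 reads after both siRNAs (10.8 to 12.3), 12.6 after Ptbp1 siRNA (11.9 to 13.2) and 11.9 in the control (11.2 to 12.5). The 3 intervals of this ratio overlapped. Sparc had 17.7 reads per 100 Fbln1 reads after both siRNAs (16.8 to 18.7) and 23.4 after Ptbp1 siRNA (22.5 to 24.4), against 33.6 in the control (32.4 to 34.7). About 3.50% of the Fn1 exon bases are shared with the annotated gene Apol7d.

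**Figure D3:**
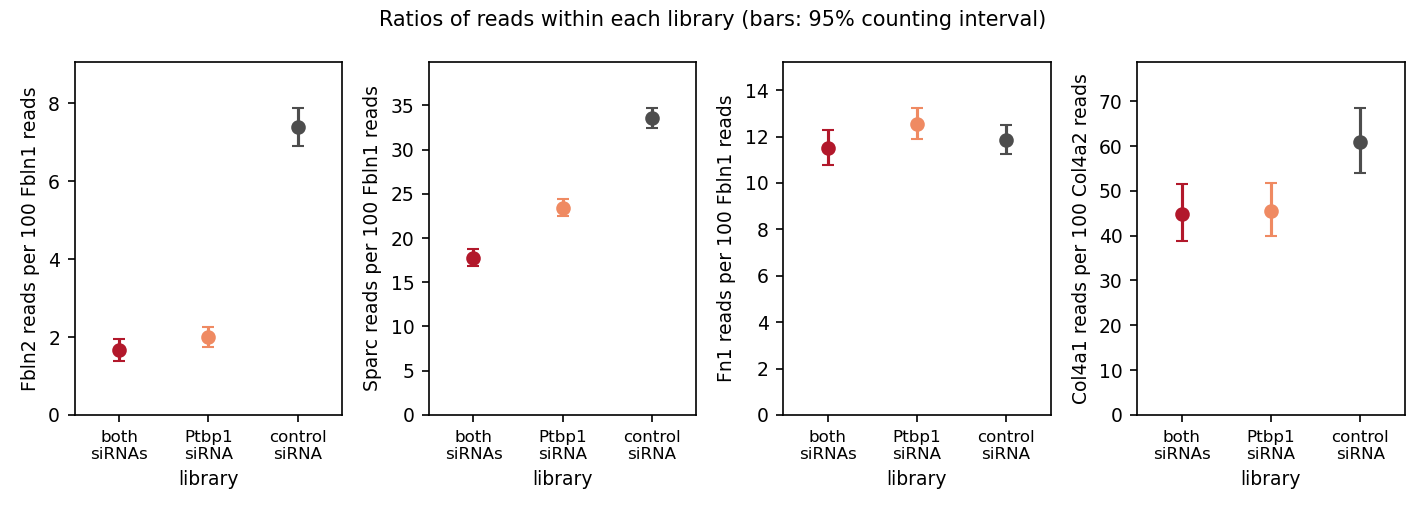
Reads of Fbln2, Sparc and Fn1 per 100 Fbln1 reads, and of Col4a1 per 100 Col4a2 reads, in the libraries of both siRNAs, Ptbp1 siRNA and control siRNA (1 library each), with 95% counting intervals as bars and axes from 0. Fbln2 and Sparc are highest in the control at 7.39 and 33.6, Fn1 stays between 11.5 and 12.6, and Col4a1 is at 44.8 and 45.5 after knockdown against 60.9 in the control.

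The collagen chains did not move as one. Col1a1 (chromosome 11, 94797585 to 94813171, plus strand) encodes a chain of fibrillar type I collagen. It had 48 reads after both siRNAs and 88 after Ptbp1 siRNA, against 122 in the control, or 3.32, 5.11 and 7.88 CPM. The Ptbp1 siRNA library again lay between the others. Relative to the control it was 2.37-fold lower with both siRNAs (1.69 to 3.39) and 1.54-fold lower with Ptbp1 siRNA (1.16 to 2.05). The first was called at a log2 difference of -1.04. The call was lost at -0.98 when libraries were scaled to their read sums, at -0.63 with a pseudocount of 5 CPM, and at -0.49 on the deposited RPKM. Col1a2, whose chain normally pairs with that of Col1a1, was listed at 0 in all 3 libraries, and Col3a1 at 1 read after both siRNAs and 0 elsewhere.

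Col4a1 was lower by about the same amount in both knockdown libraries, and Col4a2, which starts at the shared stretch printed above and runs the other way, was near its control level. Col4a1 (chromosome 8, 11198432 to 11312731, minus strand) had 283 reads after both siRNAs and 341 after Ptbp1 siRNA, against 443 in the control, or 19.6, 19.8 and 28.6 CPM. It was 1.46-fold lower after both siRNAs (1.26 to 1.70) and 1.44-fold lower after Ptbp1 siRNA (1.25 to 1.67). Col4a2 (chromosome 8, 11313025 to 11449216, plus strand) had 632 and 749 reads, against 728 in the control, or 43.7, 43.5 and 47.01 CPM. Its ratios to the control were 0.929 (0.834 to 1.04) and 0.926 (0.835 to 1.03), and both intervals included 1. Neither gene was called in any pair.

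There were 44.8 Col4a1 reads per 100 Col4a2 reads after both siRNAs (38.8 to 51.6) and 45.5 after Ptbp1 siRNA (39.9 to 51.8), against 60.9 in the control (54.0 to 68.6). Per length the ratio was 0.424 and 0.431 in the knockdown libraries and 0.576 in the control, so Col4a2 RNA was the more abundant in each. In the table, whose header calls the gene clusters trimmed, the clusters of the pair lie 293 bases apart. In the annotation 0.323% of the annotated exon bases of Col4a1 and 0.982% of those of Col4a2 are shared with another gene.

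Read as a set, 3 of the 8 genes (Fbln2, Sparc and Col1a1) were called lower after both siRNAs against the control and none higher. Over all 13465 genes tested in that pair, 2.67% were called lower and 1.05% higher. After Ptbp1 siRNA against the control 1 of the 8, Fbln2, was called lower, beside 0.455% of 13399 genes tested, and none was called higher, beside 0.269%. Between both siRNAs and Ptbp1 siRNA none of the 8 was called, beside 0.342% lower and 0.0891% higher of 13463 genes. Since the members were picked from these differences, nothing is read from these counts. The median log2 difference of the 8, with the untested Fbln5 included, was -0.54, -0.38 and -0.34 in the same order of pairs, where the median of all genes tested was -0.01, -0.01 and -0.00404. Scaling each library to its read sum put 59.4% of all called genes on the lower side after both siRNAs, against 71.7% with the composition scaling, and 48.5% against 62.9% after Ptbp1 siRNA. Both pairs with the control share that library, so a chance high or low value in it would enter both.

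Other matrix genes were listed by function, and after both siRNAs those called by size were mostly lower. The 6 lists held 146 genes, of which 145 were in the table (Fbln7 was not matched) and 79 reached 1 CPM in this pair. Of the 79, 58 (73.4%) were below 0, against 51.1% of all genes tested, and their median difference was -0.33. By size 8 were called lower (10.1%, against 2.67% of all genes) and 1 higher (1.27%, against 1.05%). After Ptbp1 siRNA 2 of 79 were called lower (2.53%, against 0.455% of all genes), and after both siRNAs against Ptbp1 siRNA 1 of 80 (1.25%, against 0.342% of all genes), with medians of -0.11 and -0.23. These lists were written with earlier results from the same libraries known, and no test was made of whether they differ from other genes.

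**Figure D4:**
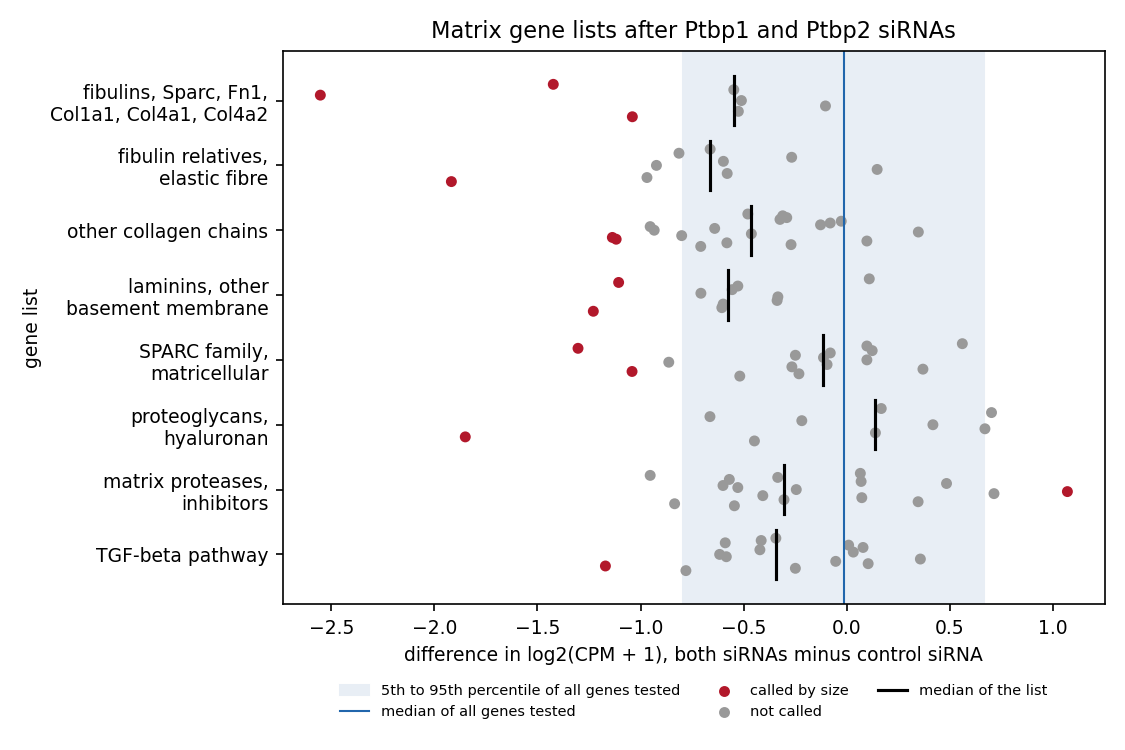
Differences in log2(CPM + 1), both siRNAs minus control siRNA, for the genes of each list that reached 1 CPM (1 point per gene, red where called by size), with the list's median as a black bar. The blue band and line give the 5th to 95th percentile and the median of all genes tested. The elastic fibre list has a median of -0.66 and the proteoglycan list 0.14.

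Of the 10 basement membrane genes that reached 1 CPM, 9 were below 0 after both siRNAs, with a median of -0.58, and Nid1 and Agrn were called. For this list and those below, the shares over all genes tested in that pair were 51.1% below 0, 2.67% called lower and 1.05% called higher. Nid1, the gene of nidogen, which links laminin to type IV collagen, had 778 reads after both siRNAs and 1478 after Ptbp1 siRNA, against 1811 in the control, and was 2.17-fold lower after both (2.00 to 2.37). Agrn, the gene of the heparan sulfate proteoglycan agrin, had 1337 and 2188 reads, against 3376 in the control, and was 2.36-fold lower after both (2.21 to 2.51). The laminin chain gene Lamc1, with 3868 and 5817 reads against 6095 in the control, was at -0.56 and was not called.

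The other collagen chains were mostly scarce in these cells, with 19 of 37 reaching 1 CPM. Of the 19, 17 were below 0 after both siRNAs, with a median of -0.46. Col18a1, a basement membrane collagen and the source of endostatin, was by far the most abundant chain of the list, with 1428 reads after both siRNAs and 2736 after Ptbp1 siRNA, against 3380 in the control. It was 2.21-fold lower after both (2.08 to 2.35). Col16a1 had 86 and 164 reads, against 218 in the control, and was 2.37-fold lower after both (1.84 to 3.08). For both genes the Ptbp1 siRNA library lay between the others.

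Among fibulin relatives and elastic fibre genes, 8 of 9 were below 0 after both siRNAs, with a median of -0.66, and Efemp2 was the 1 called. Eln, the elastin gene, had 138 reads after both siRNAs and 277 after Ptbp1 siRNA, against 304 in the control, a difference of -0.97 after both. In the SPARC family and matricellular list (secreted modulators of the matrix) 10 of 15 were below 0, with a median of -0.11. Its called genes were Fstl1, a relative of Sparc, at 2.07-fold lower (1.95 to 2.20), and Tnc, the tenascin C gene, at 3.79-fold lower (2.17 to 7.03) on 16 reads against 65. Cyr61, the gene of a secreted integrin ligand, had 53 reads after both siRNAs and 159 after Ptbp1 siRNA, and was 2.52-fold lower in the library with both (1.84 to 3.51). Its control value was 88 reads, so the Ptbp1 siRNA library was the highest.

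Proteoglycan and hyaluronan genes went both ways, with 4 of 9 below 0 and a median of 0.14 after both siRNAs. Bgn, the gene of the small proteoglycan biglycan, had 52 reads after both siRNAs and 115 after Ptbp1 siRNA, against 241 in the control. It was called in both pairs, at 4.33-fold (3.20 to 5.96) and 2.33-fold lower (1.86 to 2.93). Matrix proteases and inhibitors had 10 of 17 below 0 and a median of -0.30, and held the 1 called gene that was higher. Of all genes tested 51.1% were below 0, so neither of these shares is read as a result about its list. Mmp17, which encodes a membrane-anchored metalloproteinase, had 1055 reads after both siRNAs and 1087 after Ptbp1 siRNA, against 530 in the control, and was 2.13-fold higher after both (1.92 to 2.37).

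In the TGF-beta pathway, a main inducer of matrix genes in many cells, 10 of 15 genes were below 0 after both siRNAs, with a median of -0.34. After Ptbp1 siRNA 8 of 15 were below 0, with a median of -0.05. Of all genes tested, 51.1% and 51.5% were below 0 in these pairs. Whether this list differs from other genes was not tested. A pseudocount of 5 CPM ended the calls of Tnc, Col16a1, Mmp17 and Cyr61 and that of Bgn after Ptbp1 siRNA. A filter of 5 CPM ended that of Tnc, and scaling to read sums that of Fstl1.

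Genes whose differences from the control were most like those of a called member were found among 11319 genes with at least 200 reads over the 3 libraries, by the distance between their log2 differences after both siRNAs and after Ptbp1 siRNA. For Fbln2 the nearest was Lepre1, the gene of a collagen prolyl hydroxylase, at a distance of 0.151, with 129 reads after both siRNAs and 248 after Ptbp1 siRNA, against 985 in the control. Ptbp1 itself, at 0.542, and Fkbp14, the gene of a prolyl isomerase of the endoplasmic reticulum, at 0.628, came next but were not close. Fbln2 was at -2.55 after both siRNAs and -2.07 after Ptbp1 siRNA. Ptbp1 was at -2.14 and -2.41, so its differences were in the opposite order. For Sparc the nearest were Btg2 (0.0121), P4ha1 (0.0259), which encodes a collagen prolyl 4-hydroxylase subunit, and Insig1 (0.0342), a sterol regulator. For Col1a1 they were B4galt1 (0.00753), Arhgap18 (0.0112) and Slc27a1 (0.0189). Each likeness rests on 3 libraries. The distances for Sparc and Col1a1, and that of Lepre1 from Fbln2, are smaller than the counting error of the members' differences. The order of such near genes is therefore not read. Col1a1, with 48 to 122 reads, is also drawn toward 0 by the 1 CPM added before taking logs.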

How the data were processed

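The deposited table gave each library a whole-number read value and an RPKM value for every gene cluster. Clusters are on mm9, per the file headers, the same build as in the submitters' processing notes. Sources used here do not name the aligner, counting tool or strand use. The authors' read values go down to -65, so they are net values with no stated correction, treated here as a score and, once the 38 clusters below 0 and the 127 without a length were left out (27224 kept), handled like counts. Intervals are approximate for that reason. Deposited RPKM values, also scores on that ground, were used as levels. Starts are printed from 1.

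Scaling was by trimmed means of M values (30% and 5% trimmed; numpy 2.4.6, pandas 2.3.3), with factors of 1.02, 1.02 and 0.967 for both siRNAs, Ptbp1 siRNA and control. Ratios are CPM ratios with exact (Clopper-Pearson, conditional binomial; scipy 1.17.1) 95% intervals of reads, and RPKM has exact Poisson intervals. Reads are amplified and not independent molecules, so both cover counting error only. Where a count is 0, the limit is 3 counts, which holds only if the listed 0 is a true count. The calculation of calls and intervals was checked on simulated reads with known differences. Those reads held Poisson counting error only, so the check does not cover net values or spread between libraries. The RPKM values divide by totals of 21572838, 25649604 and 24167120 reads, of which the kept clusters hold 66.0%, 65.9% and 66.3%.

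The members and lists were chosen with earlier results of these data known. Named were all 8 members, Ptbp1 and Ptbp2, up to 5 called genes per list (50 or more reads over the pair), and the 3 genes most like each called member, and a gene that the rule names is not reported here. Lamc1, Eln, Col1a2, Col3a1 and Efemp1 were named outside this rule after their values were seen. Overlaps with other genes came from GENCODE exons of the same build.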

Additional observations from a re-analysis of the deposited data

How the results depend on the processing

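Of 537 calls of single genes made again under the alternatives, 500 kept their status, 24 lost a call and 13 gained one. No difference changed direction, but the fold limits and filters leave the differences themselves as they were. Dropping the filter, or summing all clusters with a symbol, altered no value or call of these genes. Those settings are therefore no check of direction. Fbln2 stayed called in both pairs with the control under every setting tried, and Sparc after both siRNAs under all but the 3-fold limit. A limit of 1.5-fold gave 2 called members after Ptbp1 siRNA and 1 between the knockdown libraries (Sparc added in each), and a limit of 3-fold left 1 after both siRNAs. Of all genes tested, the 1.5-fold limit called 1352 of 13465 lower after both siRNAs and 464 of 13399 after Ptbp1 siRNA. Between the knockdowns it called 474 of 13463 lower. The 3-fold limit called 48, 7 and 1 lower in the same order. On the deposited RPKM the median of the 8 after Ptbp1 siRNA was -0.22, where adding 1 RPKM weighs more on low genes by construction. For the wider matrix lists 79, 79 and 80 genes were tested after both siRNAs, after Ptbp1 siRNA and between the knockdowns. With a pseudocount of 0.1 CPM 15, 7 and 2 were called lower, beside 544, 139 and 168 of all genes. At 1.5-fold these were 26, 14 and 11, beside 1352, 464 and 474 of all genes. At 3-fold they were 2, 0 and 0, beside 48, 7 and 1. A pseudocount of 5 CPM gave 1 after Ptbp1 siRNA and 0 between the knockdowns, beside 26 and 9. Listed genes called higher numbered 1 after Ptbp1 siRNA with 0.1 CPM, beside 158 of all genes. At 1.5-fold they numbered 4 after both siRNAs and 6 after Ptbp1 siRNA, beside 974 and 392. After both siRNAs there were 0 with 5 CPM or at 3-fold, beside 44 and 9. Over all genes, a pseudocount of 0.1 CPM gave 544 lower and 344 higher after both siRNAs, 139 and 158 after Ptbp1 siRNA, and 168 and 88 between the knockdowns. A pseudocount of 5 CPM gave 177 and 44, 26 and 4, and 9 and 1. A filter of 5 CPM gave 21 higher after Ptbp1 siRNA and 6 between the knockdowns. These compare with 360 and 142, 61 and 36, and 46 and 12. Changes with the pseudocount, limit or filter follow from how those settings are built. Leaving out a library was not run, as it would empty a group. No paired analysis was possible because each group has 1 library. Depth limits Fbln5 and Col1a1 most, with 7 to 14 and 48 to 122 reads.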
